A study of Mus musculus with 4 samples.

Results

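Cycling cardiomyocytes were examined as a population of 197 nuclei among 8585 cardiomyocyte nuclei from neonatal mouse hearts. A nucleus belonged to it if its final population label was CM2 and the label transferred to it from an earlier reference was CM5. The 2 sets of labels number the populations differently, so that the CM5 of the transferred labels is not the CM5 of the final ones. Of all nuclei with the final label CM2, 197 carried the transferred label CM5, 65 CM1, 8 CM3 and 5 CM4, and 1 nucleus with the final label CM1 also had the transferred label CM5. Both labels were derived from gene expression, so a difference between this population and another one describes the labels and is given without a test. The median transfer score of the 197 nuclei was 1 on a scale from 0 to 1 and 138 of them scored 1. Only 3 scored below 0.5, all in WT-MI, where the lowest was 0.371, and the highest score for CM5 among the other 78 CM2 nuclei was 0.383.

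Nuclei came from 4 single-nucleus RNA-seq (snRNA-seq) libraries, 1 for each combination of genotype and surgery. All mice were Nrf1 fl/fl, that is, both copies of the Nrf1 gene were flanked by loxP sites. KO mice also carried αMHC-Cre, a Cre recombinase that the promoter of alpha myosin heavy chain drives in cardiomyocytes, and WT mice did not. The protocol and the methods name C57BL/6 as the background of all mice, while the strain labels read C57BL/6 for WT-MI, C57BL/7 for KO-MI, C57BL/8 for WT-Sham and C57BL/9 for KO-Sham, so these labels are not read as separate strains. At postnatal day 3 (P3) the left anterior descending coronary artery was ligated to cause a myocardial infarction (MI) or a Sham operation was done, and the methods place collection 1 day later, at P4. Tissue below the ligation plane of 4 to 6 hearts of 1 genotype was pooled for each library, so that each group (WT-Sham, WT-MI, KO-Sham and KO-MI) was 1 library without a replicate, and no test between groups could be made. Values in brackets after a ratio or share are its exact 95% interval, which covers counting error only.

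Cardiomyocytes divide in the fetal and newborn heart and largely stop soon after birth. A cell that divides first copies its DNA in S phase, with replication and repair enzymes, and then condenses its chromosomes, attaches them to a spindle through kinetochores and pinches apart in cytokinesis. Genes for the late steps are switched on in G2 and M phase by complexes that bind short promoter elements, while E2F factors drive many genes of S phase. A cardiomyocyte may also copy its DNA or divide its nucleus without dividing the cell, which leaves a polyploid or binucleated cell, and RNA of a nucleus does not show which of these followed.

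The values are unique molecular identifier (UMI) counts, that is, counts of captured RNA molecules, summed over the nuclei of a population within a library and expressed as counts per 1000000 UMIs (CPM) of that sum. CM1, the most abundant cardiomyocyte population with 6440 nuclei, served as the comparison within each library. Where 4 values follow one another without a library name, they are in the order WT-Sham, WT-MI, KO-Sham and KO-MI. The sums of cycling nuclei held 93060 UMIs from 22 nuclei in WT-Sham, 144711 from 33 in WT-MI, 312851 from 95 in KO-Sham and 204100 from 47 in KO-MI, against 4151418 to 7335268 in CM1. A cycling nucleus had a median of 4343 UMIs in WT-Sham, 4450 in WT-MI, 3160 in KO-Sham and 4377 in KO-MI, which was above the CM1 median of 3749, 4042, 2632 and 4044 in the same order. Its median number of detected genes was 2150.5 in WT-Sham, 2200.0 in WT-MI, 1702 in KO-Sham and 2156 in KO-MI, and the study had removed nuclei with more than 2500 genes. KO-Sham was the shallowest library and had the highest mitochondrial share, with a median of 7.15% in cycling nuclei against 4.93% to 5.96% in the other libraries. Libraries shared 9 cell barcodes, and 1 nucleus of KO-Sham CM2 was among them.

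The knockout label was checked first on Nfe2l1, the gene that encodes Nrf1, a transcription factor of proteasome and antioxidant genes. Over all nuclei, Nfe2l1 stood at 62.2 CPM in WT-Sham, 47.4 in WT-MI, 50.5 in KO-Sham and 55.3 in KO-MI. The log2 ratio of KO to WT was 0.22 (0.017 to 0.43) in the MI libraries and -0.30 (-0.51 to -0.088) in the Sham libraries, so that the library labelled KO-MI held more Nfe2l1 RNA than the library labelled WT-MI. Reads of a 3′ assay need not fall in the floxed part of the gene, so this level does not check the deletion. Over all nuclei, the log2 ratio of KO to WT for Psmd1, a proteasome subunit gene, was -0.61 (-0.76 to -0.46) in MI and -0.19 (-0.37 to -0.0076) in Sham, and for Hmox1, heme oxygenase of the antioxidant response, -0.76 (-1.15 to -0.38) and -0.98 (-1.67 to -0.30), so both genes lay lower in KO in both surgeries. The gene lists of the proteasome and of antioxidants did not share this direction in Sham. Within CM1, proteasome genes together had -0.13 (-0.17 to -0.093) in MI and 0.26 (0.22 to 0.30) in Sham. Antioxidant genes together had -0.038 (-0.075 to -0.00026) in MI and 0.35 (0.32 to 0.39) in Sham. Genes of other cell types together lay lower in KO within CM1, at -0.53 in MI and -0.16 in Sham. Among them, myeloid genes had -0.57 and -0.49 and endothelial genes 0.17 and 0.86. The part of RNA from other cells in the Hmox1 values was not tested. Cycling nuclei held 7, 8, 12 and 5 Nfe2l1 UMIs in the order WT-Sham, WT-MI, KO-Sham and KO-MI, and the ratios of KO to WT were -1.17 (-3.13 to 0.62) in MI and -0.97 (-2.43 to 0.61) in Sham, with 0 inside both intervals.

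Promoters of 5 genes that were higher in cycling nuclei than in CM1 are shown because they carry the elements named above. Each line gives the 120 bases before the RefSeq transcription start on GRCm38.p6, written 5′ to 3′ on the gene's strand. Capitals mark a cell cycle genes homology region (CHR, read as TTTGAA on the gene's strand and as TTCAAA on the opposite one), a CCAAT box (whose opposite strand reads ATTGG) or an E2F-type word (TTTCCCGC, TTTGGCGC, TTTCGCGC or TTTGCCGC, or the reverse complement GCGGGAAA, GCGCCAAA, GCGCGAAA or GCGGCAAA). The stretches lie at chr7:135716380-135716499, minus strand for Mki67, chr11:99024190-99024309, minus strand for Top2a, chr19:37376262-37376381, plus strand for Kif11, chr9:122950961-122951080, plus strand for Kif15 and chr1:191575545-191575664, minus strand for Dtl. Mki67 encodes the proliferation antigen Ki-67, Top2a the topoisomerase that untangles chromosomes, Kif11 and Kif15 spindle motors, and Dtl a substrate receptor of a ubiquitin ligase that acts in S phase.
Mki67: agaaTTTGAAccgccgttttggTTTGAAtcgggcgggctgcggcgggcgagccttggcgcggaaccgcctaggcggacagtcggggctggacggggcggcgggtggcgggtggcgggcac
Top2a: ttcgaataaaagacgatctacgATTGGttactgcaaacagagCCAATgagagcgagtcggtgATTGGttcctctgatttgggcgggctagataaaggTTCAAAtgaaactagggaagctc
Kif11: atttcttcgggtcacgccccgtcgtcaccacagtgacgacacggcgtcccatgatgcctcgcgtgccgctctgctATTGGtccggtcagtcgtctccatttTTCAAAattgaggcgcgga
Kif15: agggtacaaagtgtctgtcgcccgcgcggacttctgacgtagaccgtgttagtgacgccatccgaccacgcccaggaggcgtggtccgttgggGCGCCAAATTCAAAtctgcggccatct
Dtl: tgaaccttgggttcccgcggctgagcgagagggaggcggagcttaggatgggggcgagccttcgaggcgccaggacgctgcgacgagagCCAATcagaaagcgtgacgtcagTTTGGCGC

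A CHR lay in the shown stretch of Mki67, Top2a, Kif11 and Kif15, a CCAAT box in that of Top2a, Kif11 and Dtl, and an E2F-type word in that of Kif15, where it directly preceded the CHR, and in that of Dtl, where it ended at the start site. Searched over the 250 bases before the start on both strands, a CHR and a CCAAT box together were found in 25.8% of 124 windows of the mitotic lists described below, 6.02% of 83 windows of the S phase lists, 8.70% of sarcomere windows and 5.55% of all 32851 windows. E2F-type words were in 16.9% of S phase windows, 9.68% of mitotic windows and 1.86% of all windows. The windows covered 113 of 143 mitotic genes and 72 of 93 S phase genes. The shown genes were chosen for carrying the elements, and not all marker genes described below carried them. Neil3 and Knl1 had 0 CHR, 0 CCAAT boxes and 0 E2F-type words in the 250 bases. Cenpe and Cenpf had 0 CHR and 0 E2F-type words there, with 1 CCAAT box in Cenpe and 2 in Cenpf. A match describes the letters and does not show that a factor was bound there.

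All 7 marker genes of the label were higher in cycling nuclei than in CM1 of the same library, in each of the 4 libraries. Top2a (chr11:98992943-99024189, minus strand on GRCm38) stood at 688 CPM in WT-Sham, 829 in WT-MI, 700.0 in KO-Sham and 632 in KO-MI in cycling nuclei against 17.6 to 26.7 CPM in CM1, which gave log2 ratios of 5.25 (4.75 to 5.75) in WT-Sham, 5.56 (5.17 to 5.95) in WT-MI, 4.71 (4.43 to 5.0) in KO-Sham and 5.10 (4.71 to 5.50) in KO-MI. Mki67 (chr7:135689784-135716361, minus strand) stood at 269 CPM in WT-Sham, 339 in WT-MI, 368 in KO-Sham and 235 in KO-MI against 12 to 13.2 CPM in CM1, with log2 ratios of 4.48, 4.69, 4.83 and 4.16. Every cycling sum lay above every CM1 sum for both genes. Neil3 (chr8:53586867-53639065, minus strand), a DNA glycosylase that acts at replication forks, stood at 1.20 to 2.25 CPM in CM1 and at 376 CPM in WT-Sham, 304 in WT-MI, 352 in KO-Sham and 211 in KO-MI in cycling nuclei, the highest ratio of the 7 markers (mean over libraries 7.47).

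The other 4 markers act in mitosis. Knl1 (chr2:119047119-119105501, plus strand), the outer kinetochore scaffold, had log2 ratios of 5.80, 7.10, 6.37 and 6.65 in the order WT-Sham, WT-MI, KO-Sham and KO-MI. For Cdca2 (chr14:67676331-67715841, minus strand), which brings protein phosphatase 1 to chromatin, they were 6.18, 6.41, 6.62 and 6.11, and for Cenpe (chr3:135212537-135273611, plus strand), a kinetochore motor, 4.31, 4.62, 4.64 and 4.89. Cenpf (chr1:189640606-189688086, minus strand), a kinetochore protein of G2 and M phase, varied most among the libraries. Its summed UMIs were 7, 26, 84 and 60 and its level 75.2 CPM in WT-Sham, 179.7 in WT-MI, 268 in KO-Sham and 294 in KO-MI, against 10.7 to 21.1 CPM in CM1, so that its ratio ran from 2.53 (1.15 to 3.67) in WT-Sham to 4.78 (4.23 to 5.33) in KO-MI. Cenpf was thus lowest in WT-Sham, where it rested on 7 UMIs.

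**Figure D1:**
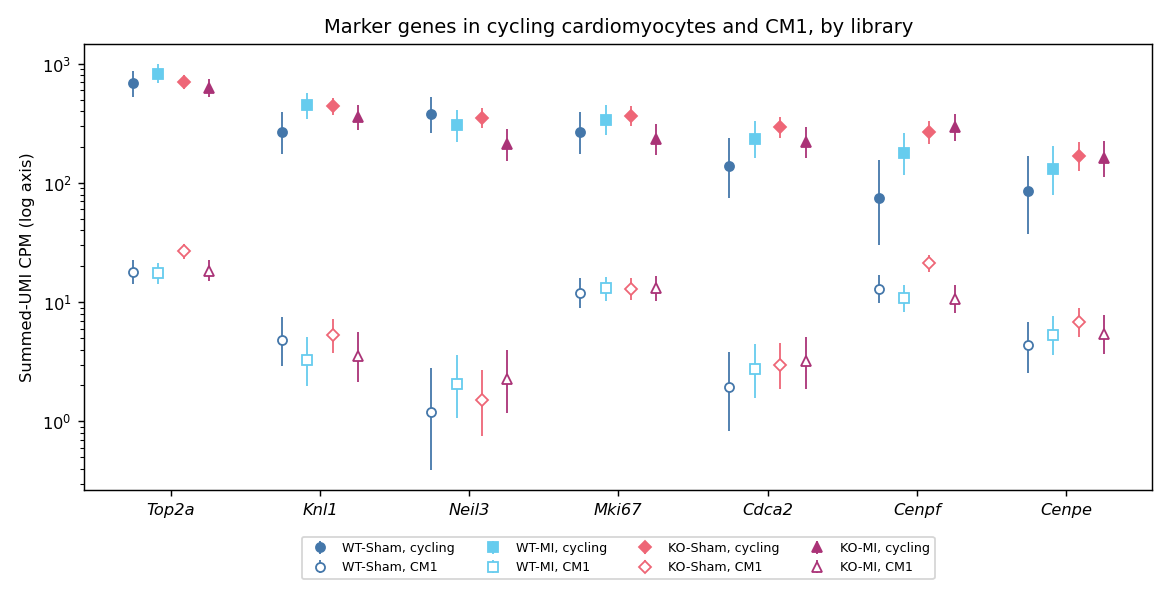
Summed-UMI CPM on a log axis of the 7 marker genes in cycling cardiomyocytes (filled) and in CM1 (open) of each library, with exact Poisson 95% intervals. Every filled symbol lies above every open symbol of its gene, and Top2a in cycling nuclei lies at 632 to 829 CPM.

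The same held nucleus by nucleus once nuclei had been thinned to 1000 UMIs each to remove differences in depth, which left out 1 CM1 nucleus of WT-Sham with fewer UMIs. The share of cycling nuclei with a UMI of at least 1 of the 7 markers was then 81.8% in WT-Sham, 87.9% in WT-MI, 88.4% in KO-Sham and 85.1% in KO-MI, against 5.20%, 5.16%, 7.25% and 5.81% of CM1 nuclei. Without thinning, every cycling nucleus of WT-Sham, WT-MI and KO-MI and 97.9% of those of KO-Sham had such a UMI, and so did 16.9%, 18.4%, 17.8% and 19.3% of CM1 nuclei. At least 3 of the 7 markers were seen, unthinned, in 81.8%, 90.9%, 80.0% and 80.9% of cycling nuclei and in no more than 0.344% of CM1 nuclei of any library. Free RNA in the droplets can give such UMIs in any nucleus, and the CM1 share is the level to read the cycling share against. Tnnt2, cardiac troponin T, stood at 3309.7 CPM in WT-Sham, 2246 in WT-MI, 3385 in KO-Sham and 2494 in KO-MI in cycling nuclei, and Ttn, the giant sarcomere protein titin, at 7157 CPM in WT-Sham, 8106 in WT-MI, 6070.0 in KO-Sham and 7609 in KO-MI. The authors had chosen the cardiomyocyte clusters by Tnnt2, so its presence is no independent check of the cell type.

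Across the genome a gene was called higher or lower in cycling nuclei if it differed from CM1 at least 2-fold in the same direction in all 4 libraries and had a mean of 50 CPM or more over the 8 sums. Of 3532 genes at that level, 154 were called higher, which is 4.36%, and 3 lower, which is 0.0849%, and the median log2 ratio over the 3532 genes was 0.021. Of the 154, 131 lay under 50 CPM in CM1, so most passed the level through the cycling nuclei alone and had to differ, and 23 lay over it in CM1. The median ratio was 2.70 over the 32 members of the S phase lists at that level and 4.26 over the 66 of the mitotic lists, and 1.26 and 0.67 where 50 CPM was required of CM1 alone. The lists below were read against this background, and since the labels used the same genes, nothing is tested by it. For each list the sum of UMIs over all its members, with no level required, is given as well.

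DNA replication genes were higher in cycling nuclei. All 63 members together stood at 6361 CPM in WT-Sham, 4277 in WT-MI, 3979.5 in KO-Sham and 4101 in KO-MI against 1010.0 to 1238 CPM in CM1, and the log2 ratio of the sums was 2.65 (2.53 to 2.78) in WT-Sham, 1.89 (1.77 to 2.01) in WT-MI, 1.87 (1.78 to 1.96) in KO-Sham and 1.73 (1.62 to 1.83) in KO-MI. The ratio was highest in WT-Sham, whose interval did not overlap those of the other libraries, and 62 of the 63 members had a mean above CM1. Of the 18 members at 50 CPM or more, of which only 4 were at that level in CM1, 12 were called higher and none lower, with a median log2 ratio of 2.26. Atad2, a chromatin ATPase of S phase, had 817 CPM in WT-Sham, 491 in WT-MI, 406 in KO-Sham and 441 in KO-MI against 19.8 to 34.4 in CM1. Pola1, the catalytic subunit of the polymerase that primes DNA synthesis, had 569.5 CPM in WT-Sham, 249 in WT-MI, 233 in KO-Sham and 323 in KO-MI against 47.0 to 85.3. Both were highest in WT-Sham. Rif1, a regulator of replication timing, was not called, with ratios of 1.85 in WT-Sham, 0.81 in WT-MI, 0.86 in KO-Sham and 1.08 in KO-MI.

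Repair genes of S phase differed more. The 30 members summed to log2 ratios of 3.50 (3.32 to 3.66) in WT-Sham, 3.29 (3.13 to 3.44) in WT-MI, 3.07 (2.96 to 3.18) in KO-Sham and 2.71 (2.56 to 2.86) in KO-MI, all 30 had a mean above CM1, and 13 of the 14 members at 50 CPM or more were called higher with a median of 4.31, though only 1 was at that level in CM1. Rad51b, a gene of recombination repair, stood at 859.7 CPM in WT-Sham, 670.3 in WT-MI, 572 in KO-Sham and 382 in KO-MI against 76.3 to 136 in CM1. Blm, the helicase that dissolves recombination intermediates, stood at 215 CPM in WT-Sham, 145 in WT-MI, 128 in KO-Sham and 142 in KO-MI against 14.2 to 22.4. In every library, these genes lay above CM1, with the highest sum again in WT-Sham and the lowest in KO-MI. Pcna, the replication clamp and a common S phase marker, was not among the called genes, named here after its values were seen, and its ratios were 1.26, -0.20, 0.53 and 0.87 on 5, 4, 17 and 11 UMIs in the order WT-Sham, WT-MI, KO-Sham and KO-MI. Rrm2, likewise not called and named after its values were seen, had a mean ratio of 3.06 and library ratios from 2.95 to 3.26.

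Genes of mitotic entry and of the spindle were higher too. For the 38 genes of mitotic entry the ratio of the sums was 2.41 in WT-Sham, 2.72 in WT-MI, 2.73 in KO-Sham and 2.80 in KO-MI, all 38 had a mean above CM1 and 8 of 10 at 50 CPM or more were called higher (median 3.99, 1 at that level in CM1). Tpx2, which activates Aurora A on the spindle, stood at 172 CPM in WT-Sham, 152 in WT-MI, 163 in KO-Sham and 157 in KO-MI against 5.06 to 7.93 in CM1. Bora, which helps to activate Plk1, had ratios of 3.67, 3.35, 3.86 and 3.91, and Wee1, the kinase that holds Cdk1 back until mitosis, had 1.80, 1.04, 1.93 and 1.97. The inhibitor of entry was thus called together with activators of it. Several well known regulators were too sparse to be called at this depth. Ccnb1, the mitotic cyclin B1, had 3, 4, 14 and 13 UMIs in cycling nuclei, Plk1 2, 2, 9 and 8, Cdc20, an activator of the anaphase-promoting complex, 0, 1, 11 and 12, and Ccna2, cyclin A2, 2, 3, 9 and 8, and none of these 4 genes had a mean of 50 CPM. They were named after their values were seen.

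The 28 genes of the spindle and centrosome summed to ratios of 3.06 (2.85 to 3.27) in WT-Sham, 3.67 (3.52 to 3.82) in WT-MI, 3.63 (3.52 to 3.73) in KO-Sham and 3.61 (3.48 to 3.74) in KO-MI, and WT-Sham was lowest, with an interval apart from the other 3. All 28 had a mean above CM1, and 12 of the 13 at 50 CPM or more were called higher (median 4.78, 1 at that level in CM1). Kif15 stood at 301 CPM in WT-Sham, 311 in WT-MI, 313 in KO-Sham and 363 in KO-MI against 3.19 to 6.26 in CM1 and Kif11 at 258 CPM in WT-Sham, 263 in WT-MI, 342 in KO-Sham and 284 in KO-MI against 4.14 to 7.63, and their promoters are those shown above. Both motors push spindle poles apart. Ckap5, a microtubule polymerase that resting cells also use, was called higher with smaller ratios of 1.26, 2.11, 1.82 and 2.38.

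Kinetochore genes were called without exception among those at 50 CPM or more, 15 of 15, none of which was at that level in CM1, and all 41 members had a mean above CM1. The median ratio of the 15 was 4.22, and the summed ratio of the list was 3.47 in WT-Sham, 3.66 in WT-MI, 3.53 in KO-Sham and 3.32 in KO-MI. Cenpp, a subunit of the inner kinetochore, had 720.0 CPM in WT-Sham, 643 in WT-MI, 828 in KO-Sham and 544 in KO-MI against 42.2 to 47.6 in CM1, but it overlaps Aspn, Ecm2, Ippk and Ogn and strand use in counting is not stated in the sources used here, so its count is uncertain. Hjurp, the chaperone that loads centromeric histone, had 344 CPM in WT-Sham, 539 in WT-MI, 399.6 in KO-Sham and 284 in KO-MI against 24.4 to 30.9. Centromere genes were thus well above CM1 in all libraries.

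Chromosome condensation and cohesion split into called and uncalled members. Summed over 25 genes the ratio was 1.84 in WT-Sham, 1.95 in WT-MI, 1.82 in KO-Sham and 1.66 in KO-MI, all 25 had a mean above CM1 and 11 of 20 at 50 CPM or more were called (median 1.99, 10 at that level in CM1). Top2a was called, and so was Smc4, a core subunit of condensin, at 419 CPM in WT-Sham, 456 in WT-MI, 300.5 in KO-Sham and 367 in KO-MI against 38.8 to 49.2 in CM1. The 9 that were not called, named after their values were seen, were Stag1, Pds5a, Smc1a, Smc3, Pds5b, Stag2, Wapl, Nipbl and Esco1, all of cohesin or its regulators, which interphase cells use too, with mean ratios from 0.14 for Esco1 to 0.79 for Stag1.

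Cytokinesis genes had the highest ratios of the 7 cell cycle lists. The 11 members summed to 1268 CPM in WT-Sham, 1852 in WT-MI, 1924 in KO-Sham and 1719.8 in KO-MI in cycling nuclei against 44.1 to 63.8 CPM in CM1, with log2 ratios of 4.85 (4.50 to 5.19) in WT-Sham, 5.36 (5.11 to 5.61) in WT-MI, 4.91 (4.74 to 5.09) in KO-Sham and 5.14 (4.91 to 5.38) in KO-MI. All 11 had a mean above CM1 and the 8 at 50 CPM or more were all called, with a median of 5.43, none of them at that level in CM1. Ect2, the exchange factor that activates RhoA at the cleavage furrow, stood at 204 CPM in WT-Sham, 366 in WT-MI, 387 in KO-Sham and 372 in KO-MI against 4.58 to 7.70 in CM1. Anln, the scaffold anillin, stood at 172 CPM in WT-Sham, 290.2 in WT-MI, 221 in KO-Sham and 259.7 in KO-MI against 5.30 to 8.59, and Prc1, which bundles microtubules of the central spindle, at 258 CPM in WT-Sham, 283 in WT-MI, 374 in KO-Sham and 240.1 in KO-MI against 8.91 to 14.7. Named after their values were seen, Racgap1 and Kif23, the 2 subunits of centralspindlin, had mean ratios of 4.52 and 5.39. Racgap1 was lowest in WT-Sham with 6 UMIs (64.5 CPM) and highest in KO-MI with 52 UMIs (255 CPM).

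In all, 79 of the 154 genes called higher belonged to the cell cycle lists and 69 to none of the lists used here, and the others were in the lists of G1 control and chromatin proteins. Of these 69, the 10 with the highest lowest ratio were Efcab11, Iqgap3, Lockd, Kifc5b, Diaph3, Skp2, Dtl, Ube2t, Kctd18 and Cntln. Lockd, a long RNA next to Cdkn1b, had 236 CPM in WT-Sham, 394 in WT-MI, 553 in KO-Sham and 397 in KO-MI in cycling nuclei against 4.51 to 10.6 in CM1. Diaph3, a formin that builds actin filaments, had 527 CPM in WT-Sham, 435 in WT-MI, 444 in KO-Sham and 382 in KO-MI against 10.5 to 20.5, and Iqgap3, a scaffold of Ras signalling, had ratios of 5.74, 6.48, 5.59 and 6.36. Skp2 and Dtl, substrate receptors of ubiquitin ligases, had ratios of 4.30, 3.30, 3.50 and 3.06 and 4.48, 3.49, 2.84 and 3.23, highest in WT-Sham for both. Ube2t, an enzyme of the Fanconi pathway of DNA repair, had 4.32, 3.40, 3.12 and 2.83. Counts of Kctd18, which overlaps the cohesin protector Sgo2a, of Kifc5b, a near copy of the motor gene Kifc1, and of Efcab11, which overlaps predicted genes, are uncertain.

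Only 3 genes were called lower, and 5 without KO-MI. Scd4, a stearoyl-CoA desaturase, had 1, 2, 6 and 10 UMIs in cycling nuclei and ratios of -3.02 in WT-Sham, -3.00 in WT-MI, -2.13 in KO-Sham and -1.60 in KO-MI. Gm41505, a predicted gene that overlaps the potassium channel gene Kcnj6, had ratios of -1.46, -1.17, -1.09 and -1.94. Meg3, a long RNA that was held in the list of the immature cardiomyocyte and was named after its values were seen, had a mean ratio of -1.71 and library ratios from -2.50 to -1.08.

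Genes that act before S phase differed less. In the list of G1 control, 30 genes of which 7 were at 50 CPM or more and 6 of those also in CM1, 2 were called higher and the median ratio was 0.33; 19 of 30 had a mean above CM1. E2f7, a repressor that itself rises in S phase, had ratios of 6.22, 6.68, 6.31 and 4.83, and the pocket protein gene Rbl1 had a mean ratio of 2.46. E2f3, an activating E2F factor, was not called, with ratios of 2.05, 1.02, 1.08 and 0.86 in the order WT-Sham, WT-MI, KO-Sham and KO-MI. Cyclin D2 and its kinase were not called. Cdk6 had ratios of -0.41, -0.77, -0.043 and -0.023, near 0 in both KO libraries. Ccnd2, cyclin D2, had -0.95, -1.28, -0.32 and -1.74 on 3, 5, 18 and 5 UMIs, below CM1 in each library. Cdkn1a lay above CM1 in each library, from 0.53 to 1.67, on 17 UMIs in all. Ccnd1 and Cdkn1c both had a mean ratio of -0.18, on 17 and 13 UMIs, with highest library ratios of 1.02 and 0.80. Of the 24 chromatin proteins, 8 were at 50 CPM or more (6 in CM1) and 4 were called, Cbx5, Ezh2, Hmgb2 and Lmnb1. Ezh2, the methyltransferase of the Polycomb complex, had 387 CPM in WT-Sham, 269.5 in WT-MI, 268 in KO-Sham and 240.1 in KO-MI against 57.2 to 64.6 in CM1, and Cbx5, a heterochromatin protein, 387 CPM in WT-Sham, 311 in WT-MI, 419 in KO-Sham and 274 in KO-MI against 102 to 125. Rbl1, Ccnd2, Cdkn1a, Ccnd1, Cdkn1c, E2f7, Hmgb2 and Lmnb1 were named after their values were seen.

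Sarcomere genes stayed abundant in cycling nuclei at a somewhat lower level than in CM1, as they did in the CM2 nuclei with the transferred label CM1 described below. The 39 members summed to 38728 CPM in WT-Sham, 39112 in WT-MI, 43938 in KO-Sham and 43469 in KO-MI against 50807 to 58004 CPM in CM1, and the log2 ratio was -0.39 (-0.44 to -0.34) in WT-Sham, -0.40 (-0.44 to -0.36) in WT-MI, -0.40 (-0.43 to -0.38) in KO-Sham and -0.33 (-0.36 to -0.29) in KO-MI. None of the 36 members at 50 CPM or more was called in either direction, 34 of them had a mean below CM1, and the median was -0.31 beside 0.021 over all genes. Ttn was at 7157 CPM in WT-Sham, 8106 in WT-MI, 6070.0 in KO-Sham and 7609 in KO-MI against 10977, 12776, 9203 and 11542 in CM1 of the same libraries, with ratios of -0.62, -0.66, -0.60 and -0.60. Myh6, the alpha myosin heavy chain, was at 3417 CPM in WT-Sham, 4139 in WT-MI, 3954 in KO-Sham and 4811 in KO-MI, with ratios of -0.58, -0.49, -0.50 and -0.39. Cycling nuclei lay below CM1 for both genes in all 4 libraries, and the S phase and mitotic lists took 10176 and 14754 of every 1000000 UMIs of cycling nuclei in WT-Sham. Scaling by edgeR's TMM factors moved the median of all genes to -0.20 and that of sarcomere genes to -0.52.

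Other sarcomere genes were named after their values were seen. Myh7, the fetal beta myosin heavy chain, had ratios of -0.54, -0.94, -0.55 and -0.85, Tnni1, the fetal troponin I, -0.20, -0.39, -0.28 and -0.40, and Tnni3, the adult troponin I, -0.04, -0.25, -0.13 and -0.19. Fetal and adult isoforms thus both had values below 0. Synpo2l, an actin-binding protein of the Z-disc, had the lowest mean ratio of the list at -1.02, without being called, and Actn2, the Z-disc actinin, had -0.19.

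For calcium handling and excitation, 24 of 25 genes were at 50 CPM or more, none was called, 18 lay below CM1 and the summed ratio ran from -0.29 to -0.21. Ryr2, the calcium release channel of the sarcoplasmic reticulum, stood at 6189.6 CPM in WT-Sham, 5521 in WT-MI, 5188 in KO-Sham and 5296 in KO-MI against 9691, 7636, 8090.0 and 7072 in CM1, lower in each library with ratios of -0.65, -0.47, -0.64 and -0.42. The sodium-calcium exchanger gene Slc8a1 had ratios of 0.051, -0.40, -0.092 and -0.34, on both sides of 0. Among 18 cardiac transcription factors, 13 at 50 CPM or more had a median of -0.069 and none was called; Zfpm2, a GATA4 cofactor, had -0.42, 0.22, 0.17 and 0.24 and Myocd, myocardin, -0.30, -0.088, -0.034 and -0.11. In the list of growth signalling the summed ratio was 0.084 (-0.063 to 0.23) in WT-Sham, 0.33 (0.21 to 0.44) in WT-MI, 0.33 (0.25 to 0.41) in KO-Sham and 0.33 (0.24 to 0.43) in KO-MI, with no gene called. Its 11 members at 50 CPM or more had a median of 0.15, with 7 above 0 and 4 below. Erbb4, the neuregulin receptor and the member with most UMIs, had 2289 CPM in WT-Sham, 2336 in WT-MI, 2167 in KO-Sham and 2073 in KO-MI against 1936, 1462, 1588 and 1421 in CM1. Tead1, the next by UMIs, had library ratios from -0.28 to 0.43.

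**Figure D2:**
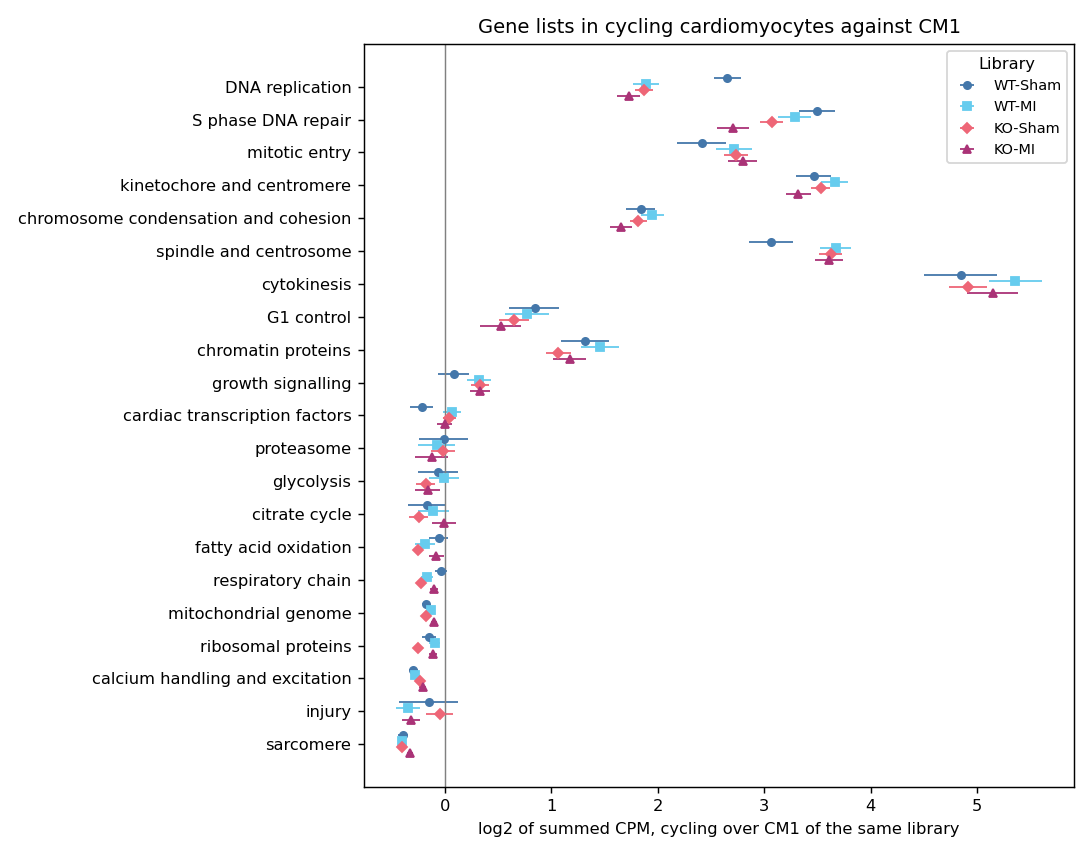
Log2 ratio of the summed CPM of each gene list, cycling cardiomyocytes over CM1 of the same library, with exact 95% intervals for counting error, and a line at 0. The 7 cell cycle lists lie at 1.66 or more, and the sarcomere list between -0.40 and -0.33.

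In metabolic genes no member was called higher or lower in the lists of fatty acid oxidation (27 of 31 genes at 50 CPM or more, median -0.17), glycolysis (17 of 22, -0.17), the citrate cycle (17 of 18, -0.15), the respiratory chain (77 of 78, -0.15) or the mitochondrial genome (11 of 13, -0.15). Fabp3, the fatty acid carrier of heart muscle, stood at 2869 CPM in WT-Sham, 1230.0 in WT-MI, 4341 in KO-Sham and 1744 in KO-MI in cycling nuclei and 2791, 1503, 5266 and 1871 in CM1, a ratio of 0.04, -0.29, -0.28 and -0.10. Its level differed more between libraries than between cycling nuclei and CM1. Cox4i1, a subunit of cytochrome c oxidase, had -0.025, 0.05, -0.22 and -0.16, and mt-Co3, a subunit of that enzyme from the mitochondrial genome, -0.19, -0.16, -0.19 and -0.087. Values for Ldhb, lactate dehydrogenase B, were -0.16, 0.49, -0.14 and -0.20. The lists of ribosomal proteins (78 of 82, -0.16), of the proteasome (18 of 34, -0.03) and of antioxidant genes (12 of 27, -0.20) held no called gene either. Under TMM scaling the medians were -0.39 for fatty acid oxidation and -0.36 for the respiratory chain, beside -0.20 for all genes.

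Markers of other cells were read in the same way. The list of endothelial genes (9) summed to 398 to 665 CPM in cycling nuclei against 467 to 846 in CM1, fibroblast genes (8) to 715 to 937 against 916 to 1079, and genes of pericytes and smooth muscle (6) to 186 to 256 against 216 to 403. Myeloid genes (9) stood at 38.4 to 111 CPM against 42.3 to 137, with Adgre1 and Cd163 at 0. Red blood cell genes (5) were at 1071 to 3358 CPM against 1891 to 3829, with a ratio below 0 in all 4 libraries and an interval below 0 in 3. An interval above 0 was seen for epicardial genes (4) in KO-MI, with a ratio of 1.23 (0.39 to 1.97), and for atrial genes (5) in WT-MI, with 1.18 (0.15 to 2.05), where Sln and Bmp10 were at 0. Atrial genes also had 1.17 (-0.31 to 2.33) in WT-Sham and 0.64 (-0.11 to 1.31) in KO-MI, and endothelial genes 0.11 (-0.23 to 0.43) in WT-MI, with 0 inside these intervals. Of the 46 genes in these lists, 13 had a mean above CM1. Only 11 of the 46 were at 50 CPM or more and so could be called, and none of these was. No myeloid, epicardial or atrial gene was at that level. The part of other cells in the cell cycle result was not tested beyond these levels.

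The balance of S phase and mitotic RNA was read within the same nuclei, so that depth cancels. The 2 S phase lists (93 genes) and the 5 mitotic lists (143 genes) gave 947 and 1373 UMIs in WT-Sham, 1054 and 2519 in WT-MI, 2152 and 5493 in KO-Sham, and 1293 and 3246 in KO-MI. The number of S phase UMIs per mitotic UMI was 0.690 (0.634 to 0.750) in WT-Sham, 0.418 (0.389 to 0.450) in WT-MI, 0.392 (0.373 to 0.412) in KO-Sham and 0.398 (0.373 to 0.425) in KO-MI. WT-Sham lay above the other libraries with an interval apart from theirs, and the other 3 overlapped one another. WT-Sham rested on 22 nuclei, whose own spread the intervals do not hold.

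Individual cycling nuclei held from 2 to 80 S phase UMIs and from 13 to 169 mitotic UMIs, while the median CM1 nucleus held 3 to 5 and 6 to 9 depending on the library. S phase UMIs outnumbered mitotic ones in 35 of 197 cycling nuclei, namely 6 of 22 in WT-Sham, 6 of 33 in WT-MI, 14 of 95 in KO-Sham and 9 of 47 in KO-MI. The share of mitotic UMIs in this sum ran from 32.5% to 97.5% among cycling nuclei, and its median was 55.9% in WT-Sham, 73.0% in WT-MI, 70.3% in KO-Sham and 73.0% in KO-MI. The plot of UMIs per nucleus shows this spread in each library. CM1 nuclei, with few UMIs of either kind, had a like median of 66.7%, so the share is given beside both counts. In CM1 the list of condensation and cohesion, with cohesin genes that interphase cells use too, gave 5917 of 10293 mitotic UMIs in WT-Sham. It gave 7758 of 13753 in WT-MI, 9690 of 18219 in KO-Sham and 7126 of 12986 in KO-MI. In cycling nuclei it gave 475 of 1373, 748 of 2519, 1459 of 5493 and 861 of 3246 in the same order. The share was not read without cohesin genes.

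**Figure D3:**
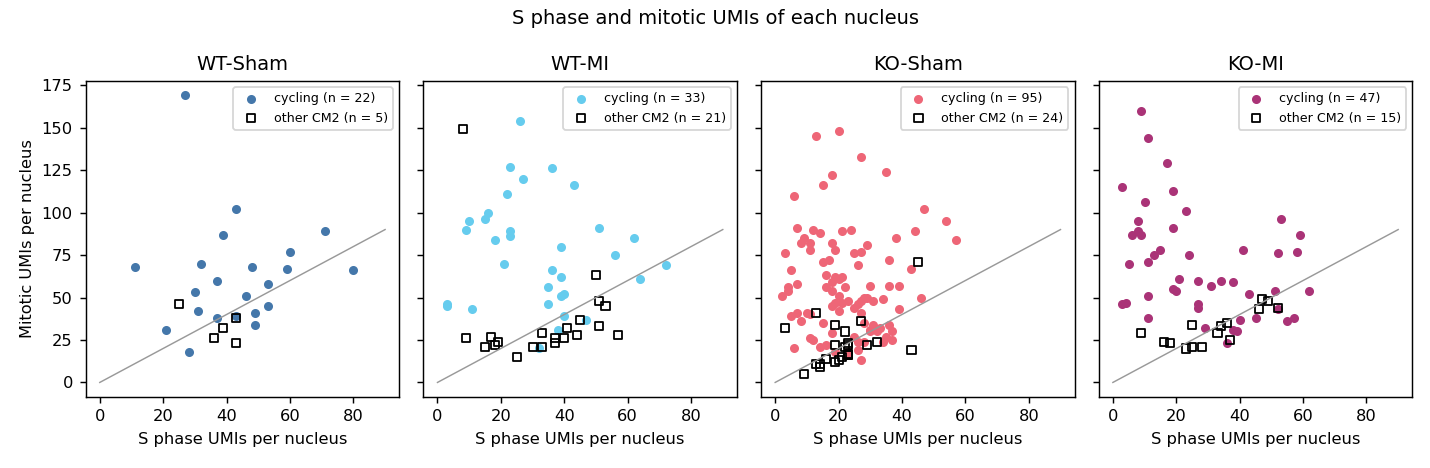
S phase UMIs (x axis) and mitotic UMIs (y axis) of each nucleus, by library, for cycling cardiomyocytes (filled) and for CM2 nuclei with the transferred label CM1 (open squares), with a line of equal counts. Of the cycling nuclei, 35 of 197 lie below the line, and of the other CM2 nuclei 44 of 65.

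Cycling nuclei of each library were also parted at the library median of that mitotic share, into an S-rich and an M-rich set of 11 nuclei each in WT-Sham, 16 in WT-MI, 47 in KO-Sham and 23 in KO-MI, with the middle nucleus left out where the number was odd. Nuclei within 5 percentage points of the median numbered 8, 3, 21 and 6, so the sets are ranges and not types. Genes that rise in S phase, such as E2f7 of the G1 control list, are not independent of how the sets were parted. A difference in that list therefore describes the split and tests nothing. The G1 control list was lower in the M-rich than in the S-rich set in all 4 libraries, with log2 ratios of -0.45 (-0.93 to 0.032) in WT-Sham, -0.91 (-1.35 to -0.48) in WT-MI, -0.37 (-0.65 to -0.083) in KO-Sham and -0.85 (-1.25 to -0.46) in KO-MI, and the interval reached past 0 in WT-Sham alone. Ryr2 ratios were -0.26 (-0.50 to -0.013), -0.27 (-0.47 to -0.065), -0.22 (-0.36 to -0.079) and -0.16 (-0.34 to 0.013) and Ttn ratios -0.018 (-0.24 to 0.21), 0.39 (0.22 to 0.57), 0.25 (0.12 to 0.38) and 0.48 (0.33 to 0.63) in the order WT-Sham, WT-MI, KO-Sham and KO-MI. Ryr2 was below 0 in all 4 libraries, with 0 inside the interval in KO-MI, and Ttn was above 0 in 3 libraries, with 0 inside the interval in WT-Sham. Of the other muscle genes compared, Tnnt2 and Actn2 had no common sign and Myh6 was above 0, with -0.47, -0.12, -0.085 and 0.35 for Tnnt2, 0.23, 0.34, 0.059 and 0.061 for Myh6 and -0.16, -0.062, 0.45 and 0.19 for Actn2. The list of calcium handling and excitation, which holds Ryr2, had -0.00021, 0.17, -0.064 and 0.018. Sarcomere genes summed to ratios of 0.028, 0.16, 0.036 and 0.20 and respiratory chain genes to 0.21, -0.002, -0.11 and 0.077 between the sets. The mitochondrial genome list had -0.20 (-0.28 to -0.12), 0.35 (0.28 to 0.42), 0.15 (0.11 to 0.19) and 0.16 (0.098 to 0.21), so it lay on both sides of 0. Ribosomal protein genes had 0.32, 0.069, -0.11 and -0.018. Growth signalling had 0.15, 0.34, 0.12 and 0.23, with 0 inside the interval in WT-Sham and KO-Sham. These intervals do not hold the spread among nuclei.

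The nearest population by label was that of 65 CM2 nuclei with the transferred label CM1, of which 5 were in WT-Sham, 21 in WT-MI, 24 in KO-Sham and 15 in KO-MI. S phase genes differed less than mitotic ones. The log2 ratio of cycling nuclei to these was 0.09 in WT-Sham, 0.036 in WT-MI, 0.01 in KO-Sham and -0.27 in KO-MI for the S phase lists, with 0 inside the interval in 3 of 4 libraries, and after thinning it was -0.14 in WT-Sham and -0.20 in WT-MI. For the mitotic lists it was 0.80 (0.56 to 1.04) in WT-Sham, 1.23 (1.11 to 1.35) in WT-MI, 1.30 (1.18 to 1.43) in KO-Sham and 1.06 (0.92 to 1.20) in KO-MI. The S phase sum held lists with different signs. DNA replication genes had -0.003 (-0.28 to 0.29), -0.15 (-0.32 to 0.026), -0.16 (-0.33 to 0.019) and -0.37 (-0.56 to -0.18) in the order WT-Sham, WT-MI, KO-Sham and KO-MI, and S phase repair genes 0.26 (-0.13 to 0.67), 0.35 (0.12 to 0.58), 0.28 (0.048 to 0.52) and -0.048 (-0.32 to 0.23). Replication genes thus lay below 0 beyond counting error in KO-MI, and repair genes above 0 in WT-MI and KO-Sham. S phase UMIs outnumbered mitotic ones in 44 of these 65 nuclei, and their median mitotic share was 46.5% against 68.5% in cycling nuclei. Mki67 was 2.25 higher on the log2 scale of library means in cycling nuclei and Top2a 2.02, and Neil3, a DNA glycosylase in the S phase repair list, 2.37. Of the other genes with promoters shown above, Kif11 and Kif15 were also higher, by 2.30 and 2.32. Dtl was lower in cycling nuclei than in the 65, at -1.02 (mean 102 against 207 CPM). Sarcomere genes of the 65 nuclei lay below CM1 as well, with summed log2 ratios of -0.21, -0.41, -0.24 and -0.29. Cycling nuclei over the 65 gave -0.18 (-0.29 to -0.07), 0.011 (-0.049 to 0.07), -0.16 (-0.21 to -0.10) and -0.031 (-0.093 to 0.031). The sarcomere level below CM1 was thus not particular to cycling nuclei. In WT-MI, 1 of the 21 nuclei carried 3964 red blood cell UMIs, 41.3% of all its UMIs, and without it the ratios there were -0.093 for the S phase lists and 1.41 for the mitotic lists.

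Of all cardiomyocyte nuclei, cycling ones made up 1.56% (0.983% to 2.36%) in WT-Sham, 1.65% (1.14% to 2.31%) in WT-MI, 2.85% (2.32% to 3.48%) in KO-Sham and 2.54% (1.87% to 3.37%) in KO-MI, from 22 of 1406, 33 of 2003, 95 of 3328 and 47 of 1848 nuclei, with exact Clopper-Pearson intervals. The share of KO exceeded that of WT by 0.896 percentage points (-0.0428 to 1.87) in MI and by 1.29 percentage points (0.330 to 2.14) in Sham. Between MI and Sham it differed by 0.0828 percentage points (-0.862 to 0.961) in WT and -0.311 percentage points (-1.23 to 0.674) in KO. Only the difference of genotypes in Sham lay outside counting error, and without a second library the spread between hearts is unknown. Depth moved with this comparison, in that KO-Sham had the lowest median UMIs per nucleus, 2572 over all its nuclei against 3554 in WT-Sham, and the part of depth in it was not tested. Counting all CM2 nuclei gave 1.92% in WT-Sham, 2.85% in WT-MI, 3.73% in KO-Sham and 3.63% in KO-MI, and counting nuclei of any label with 2 or more of the 7 markers after thinning gave 1.21%, 1.20%, 2.16% and 1.84% in the same order. The nuclei at issue are those the study kept, since it had removed nuclei with over 2500 genes.

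**Figure D4:**
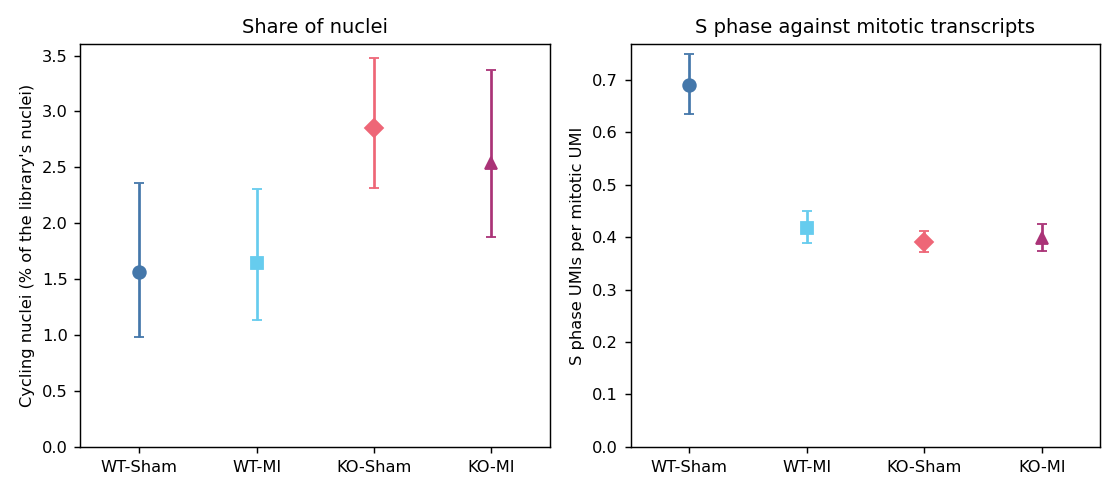
Left, cycling cardiomyocytes as a percent of all cardiomyocyte nuclei of each library, with exact 95% intervals; right, S phase UMIs per mitotic UMI summed over cycling nuclei, with exact 95% intervals. Shares run from 1.56% in WT-Sham to 2.85% in KO-Sham, and the ratio is highest in WT-Sham at 0.690.

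The genotype comparison asked whether loss of Nrf1 in cardiomyocytes went with a difference within cycling nuclei. The S phase lists stood at 10176 CPM in WT-Sham, 7283 in WT-MI, 6879 in KO-Sham and 6335 in KO-MI and the mitotic lists at 14754 CPM in WT-Sham, 17407 in WT-MI, 17558 in KO-Sham and 15904 in KO-MI. The log2 ratio of KO to WT for the S phase lists was -0.20 (-0.32 to -0.083) in MI and -0.57 (-0.68 to -0.45) in Sham, against 0.11 and 0.087 in CM1. In MI it was 0.10 among nuclei whose share of UMIs from genes of other cell types was at or under the library median, so the direction turned there, and it was -0.031 after thinning. For the mitotic lists it was -0.13 (-0.21 to -0.055) in MI and 0.25 (0.17 to 0.34) in Sham, against 0.041 and 0.0025 in CM1. Mitotic genes thus lay on opposite sides of 0 in the 2 surgeries, and S phase genes lay lower in KO by a larger amount in Sham. Cytokinesis genes had -0.11 (-0.34 to 0.13) in MI and 0.60 (0.31 to 0.90) in Sham. TMM scaling gave -0.39 for S phase and 0.43 for mitotic lists in Sham. WT-Sham, with 22 nuclei, was the reference of all the Sham values.

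Among other lists, the respiratory chain was higher in KO in both surgeries, by 0.29 (0.23 to 0.36) in MI and 0.64 (0.58 to 0.70) in Sham, and so was fatty acid oxidation, by 0.24 and 0.20. CM1 gave 0.23 and 0.82 for the respiratory chain and 0.13 and 0.39 for fatty acid oxidation, so both lists lay above 0 in both populations. Proteasome genes, targets of Nrf1, had -0.18 (-0.41 to 0.052) and 0.25 (0.0062 to 0.51), against -0.13 and 0.26 in CM1. Antioxidant genes had -0.040 (-0.26 to 0.19) and 0.27 (0.038 to 0.52), against -0.038 and 0.35 in CM1. The sarcomere list had 0.15 and 0.18. Red blood cell genes, a sign of RNA from other cells, had -0.84 and -0.55 in cycling nuclei and -0.92 and -0.43 in CM1, so they moved with genotype in both populations. Genes of the mitochondrial genome had -0.027 (-0.071 to 0.016) in MI and 0.46 (0.42 to 0.50) in Sham, against -0.054 and 0.46 in CM1, and ribosomal protein genes had 0.14 (0.079 to 0.20) and 0.45 (0.38 to 0.52), against 0.15 and 0.55. Endothelial genes had 0.039 (-0.39 to 0.47) and 0.74 (0.23 to 1.29), against 0.17 and 0.86. In Sham these 3 lists were higher in KO together with the respiratory chain, and the part of RNA quality or other cells in these results was not tested.

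Single genes were called here if KO and WT differed at least 2-fold in the same direction in both surgeries, with both intervals free of 0 and at least 20 UMIs in each pair. Of 3087 genes with enough UMIs, 2 were higher in KO, which is 0.0648%, and 4 lower, which is 0.13%. Dek, a chromatin protein of dividing cells, stood at 279 CPM in WT-Sham, 138 in WT-MI, 121 in KO-Sham and 53.9 in KO-MI in cycling nuclei, with KO to WT ratios of -1.36 (-2.57 to -0.23) in MI and -1.20 (-1.96 to -0.42) in Sham. In CM1 it was level across libraries, at 47.9 to 53.8 CPM. Eml5, a microtubule-associated protein, stood at 226 CPM in WT-Sham, 179.7 in WT-MI, 99.1 in KO-Sham and 83.3 in KO-MI, with ratios of -1.11 and -1.19, and Rap1gap2, which switches off Rap1, had -2.16 and -1.06. The fourth, 2310014F06Rik, overlaps Tead1 and is uncertain, with ratios of -1.14 and -1.45. Higher in KO were Sec31a, a coat protein of vesicles that leave the endoplasmic reticulum, with 1, 7, 24 and 24 UMIs, and Ndufa12, a complex I subunit, with 8, 12, 58 and 35 UMIs in the order WT-Sham, WT-MI, KO-Sham and KO-MI.

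More genes were called between MI and Sham. Of 2406 genes with enough UMIs, 13 were higher in MI in both genotypes, which is 0.54%, and 19 lower, which is 0.79%. Nppa, the natriuretic peptide of stressed heart muscle, stood at 193 CPM in WT-Sham, 1603 in WT-MI, 205 in KO-Sham and 1950.0 in KO-MI, with MI to Sham ratios of 3.05 (2.36 to 3.83) in WT and 3.25 (2.87 to 3.66) in KO. Nppb, its relative, stood at 32.2 CPM in WT-Sham, 677 in WT-MI, 86.3 in KO-Sham and 568 in KO-MI, and Ankrd1, a stress protein of the sarcomere, at 172 CPM in WT-Sham, 1037 in WT-MI, 214 in KO-Sham and 1235 in KO-MI. Both MI libraries lay above both Sham libraries for all 3 genes. Ratios of cycling nuclei to CM1 of the same library were 0.39, -0.29, -0.32 and -0.28 for Nppa in the order WT-Sham, WT-MI, KO-Sham and KO-MI, -0.32, -0.12, -0.28 and -0.54 for Nppb and 0.12, -0.56, 0.11 and -0.41 for Ankrd1. The injury list lay below CM1 in both MI libraries, at -0.34 (-0.45 to -0.23) in WT-MI and -0.32 (-0.40 to -0.23) in KO-MI, and at -0.14 (-0.43 to 0.13) in WT-Sham and -0.047 (-0.17 to 0.078) in KO-Sham. Between MI and Sham, it had 1.97 (1.68 to 2.27) in WT and 1.63 (1.48 to 1.78) in KO, against 2.17 and 1.90 in CM1. Spp1, a secreted protein of macrophages and injured tissue, had 0, 37, 4 and 33 UMIs, and S100a9, a protein of neutrophils, had 2, 32, 5 and 18. Myeloid genes had ratios of 1.04 (-0.47 to 2.84) and 0.73 (-0.52 to 1.99) in cycling nuclei and 1.20 and 1.13 in CM1, and red blood cell genes had 1.10 and 0.81 in cycling nuclei. The part of RNA from other cells in the Spp1 and S100a9 values was not tested.

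Among the genes lower in MI was Acadvl, the first dehydrogenase of long-chain fatty acid oxidation, at 193 CPM in WT-Sham, 55.3 in WT-MI, 185 in KO-Sham and 73.5 in KO-MI with ratios of -1.81 in WT and -1.33 in KO. The respiratory subunits Ndufa13 and Uqcrfs1 had ratios of -1.28 and -1.60, and -1.26 and -1.26. Adamts19, a secreted protease, had -2.12 and -1.33. As a list, fatty acid oxidation had -0.65 (-0.78 to -0.52) in WT and -0.61 (-0.69 to -0.53) in KO and the respiratory chain -0.53 (-0.60 to -0.45) and -0.87 (-0.92 to -0.82). CM1 gave -0.52, -0.78, -0.40 and -0.99 for the same, and sarcomere genes in cycling nuclei had 0.014 and -0.015. The mitochondrial genome list was also lower in MI, with -0.14 (-0.19 to -0.088) in WT and -0.63 (-0.66 to -0.59) in KO. Its level was highest in KO-Sham, at 77113 CPM in cycling nuclei, and KO-Sham was also the library with the lowest median UMIs per nucleus. The part of either in the respiratory chain values was not tested. Cell cycle lists differed less than the injury list. S phase lists had -0.48 (-0.61 to -0.35) in WT and -0.12 (-0.22 to -0.019) in KO, and mitotic lists 0.24 (0.14 to 0.33) and -0.14 (-0.21 to -0.08).

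**Figure D5:**
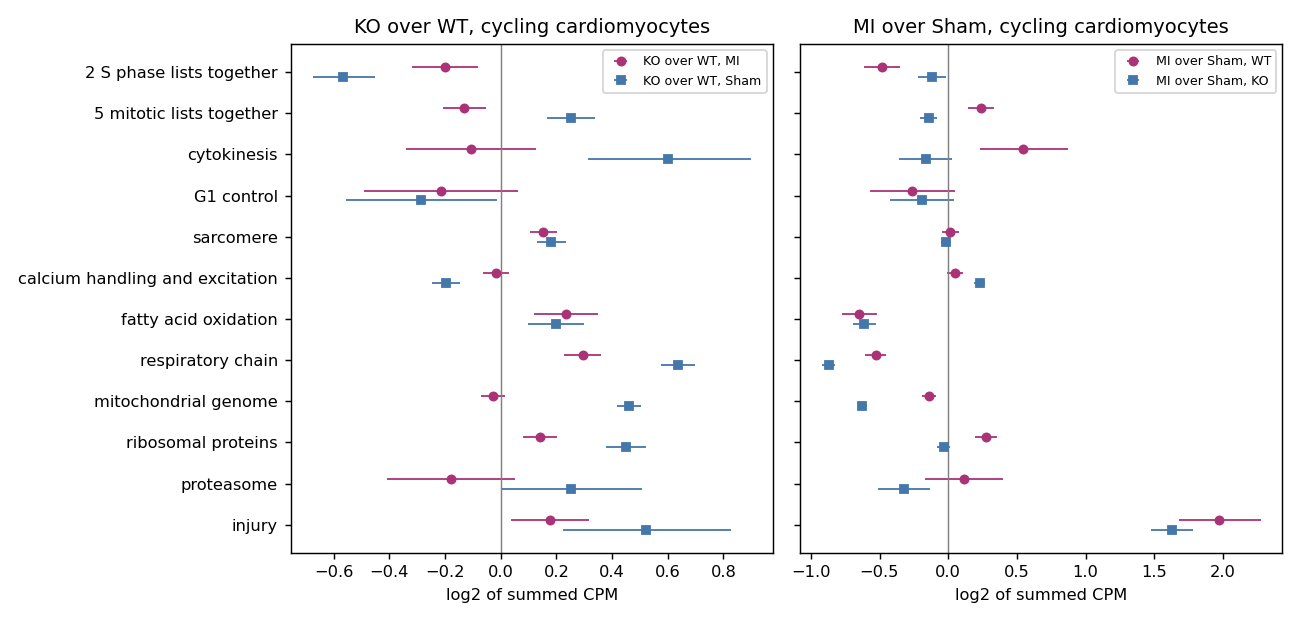
Log2 ratio of summed CPM within cycling cardiomyocytes, KO over WT in MI and Sham (left) and MI over Sham in WT and KO (right), with exact 95% intervals for counting error and a line at 0. The injury list lies at 1.97 and 1.63 in MI over Sham, and the mitotic lists lie on opposite sides of 0 in the 2 pairs of each panel.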

How the data were processed

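The labels give mouse hearts, 4 snRNA-seq libraries and 1 library per group. Per the methods and the submitters' processing notes, reads were aligned by Cell Ranger (version not given in the sources used here) to the mm10/GRCm38 pre-mRNA reference and processed in Seurat 3. The authors had removed doublets called by Scrublet and nuclei outside 200 to 2500 genes (0 such nuclei were found) and kept cardiomyocyte clusters; no doublet caller was run again. The authors deposited raw UMI counts per gene and nucleus (22574 genes, 8585 nuclei, no normalization), whose sum per nucleus matched the UMI total given beside it for every nucleus, the percent of mitochondrial UMIs, both sets of labels, and transfer scores, deposited as a fraction from 0 to 1. Another 8 deposited columns per nucleus were not used. Strand use in counting is not given in the sources used here.

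UMIs were summed per library and population. CPM carry exact Poisson, shares Clopper-Pearson and ratios conditional binomial 95% intervals; intervals for differences of shares were combined from the exact ones. A count of 0 was set to a floor of 3 UMIs for bounds, and no ratio is given where both sums were at or under 3. Mean ratios are ratios of the means over 4 libraries. Scripts ran in Python 3.11.15 with NumPy 2.4.6, SciPy 1.17.1, pandas 2.3.3 and matplotlib 3.10.9, and in R 4.3.3 with edgeR 4.0.16 for TMM factors, and were tested on simulated data. Positions came from GENCODE M21, which held 22122 of 22574 symbols (98.0%), and promoters from RefSeq (GRCm38.p6). Alternatives were other scalings (median-ratio size factors, TMM), thinning to 1000 UMIs, equal weight per nucleus, a transfer score of 0.5 or more, fewer other-cell UMIs, other CPM levels, other definitions of the population and leaving out each library. The members and lists were chosen with earlier results of these data known. Genes named by rule were the 7 markers, the 3 (cell cycle lists) or 2 (other lists) members with most UMIs in cycling nuclei, the 10 highest and 10 lowest called genes in no list by their least extreme library ratio, up to 5 genes each way called in both pairs of KO over WT or MI over Sham, and Nfe2l1, Psmd1 and Hmox1; 1 gene that the rule named is not reported here. Psmd1 held 5, 14, 28 and 18 UMIs in cycling nuclei and Hmox1 0, 0, 0 and 2, in the order WT-Sham, WT-MI, KO-Sham and KO-MI.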

Additional observations from a re-analysis of the deposited data

Results flagged for a closer look

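Within cycling cardiomyocytes, mitotic genes lay on opposite sides of 0 in the pairs compared. The 5 mitotic lists together had a log2 ratio of KO to WT of -0.13 (-0.21 to -0.055) in MI and 0.25 (0.17 to 0.34) in Sham, and kinetochore and centromere genes had -0.22 (-0.37 to -0.068) and 0.26 (0.092 to 0.42). The same 4 libraries, taken as MI over Sham, gave 0.24 (0.14 to 0.33) in WT and -0.14 (-0.21 to -0.08) in KO for the mitotic lists and 0.21 (0.028 to 0.40) and -0.26 (-0.38 to -0.14) for the kinetochore list. Each pair of intervals lay on opposite sides of 0. The difference between pairs itself was not tested, because each group was 1 library, and WT-Sham held 22 of the 197 nuclei.

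The CM2 nuclei with the transferred labels CM3 and CM4, which were counted above in shares and transfer scores but in no ratio against CM1, also carried cell cycle RNA. Pooled over libraries and set against CM1, the 8 nuclei with the transferred label CM3 had log2 ratios of 1.99 (1.78 to 2.20) for the S phase lists and 1.16 (0.94 to 1.38) for the mitotic lists. The 5 nuclei with the transferred label CM4 had 1.82 (1.54 to 2.09) and 2.28 (2.10 to 2.46).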

How the results depend on the processing

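The ratio of KO to WT for S phase lists in MI was the value whose direction reversed, and S phase ratios against the other CM2 nuclei and the median of all genes, both near 0, also changed sign under alternatives. No paired analysis was possible because each group held 1 library; cycling nuclei were set against CM1 within each library throughout. Over all results and alternatives, 280 values stayed close, 76 moved and 1 reversed, and the cause was not tested for any. The ratio of KO to WT for S phase lists in MI, -0.20, was 0.10 with nuclei at or under the library median of other-cell UMIs and -0.031 after thinning. Genes called higher numbered 301 at 20 CPM, 51 at 100 CPM, 129 with size factors and 120 with TMM, where all 129 and all 120 were among the 154, 23 with 50 CPM required of CM1 alone, and 158 to 177 without 1 library. Genes called lower numbered 5 with TMM, 6 after thinning, 7 at 20 CPM, 1 at 100 CPM, and 3 to 5 without 1 library, with 5 without KO-MI. Size factors and TMM moved the median of all genes from 0.021 to -0.10 and -0.20. Beside that, medians were -0.43 and -0.52 for sarcomere genes, -0.27 and -0.36 for the respiratory chain, and -0.29 and -0.39 for fatty acid oxidation. The mitotic median was 3.99 with TMM, 3.84 at 100 CPM, 0.67 with the level required of CM1 alone, and 3.95 to 4.27 without 1 library; the S phase median was 1.26 with the level required of CM1 alone. TMM gave -0.39 for S phase and 0.43 for mitotic lists in KO over WT (Sham) and -0.22 for mitotic lists in MI over Sham (KO), where nuclei with fewer other-cell UMIs gave -0.072 and S phase lists in WT -0.76. Shares counted over all CM2 nuclei were 2.85% in WT-MI, 3.73% in KO-Sham and 3.63% in KO-MI, and by 2 or more markers 2.16% in KO-Sham and 1.84% in KO-MI, over nuclei with 1000 UMIs or more (1400 of 1406 in WT-Sham, 2002 of 2003 in WT-MI and all in KO). Requiring 3 UMIs of the 7 lists after thinning took in 71.9%, 66.4%, 71.6% and 71.0% of all nuclei (WT-Sham, WT-MI, KO-Sham, KO-MI) and so did not define cycling nuclei. S phase UMIs per mitotic UMI without Top2a, Mki67, Cenpf and Cenpe were 0.457 in WT-MI, 0.429 in KO-Sham and 0.434 in KO-MI, 0.438 in KO-Sham with equal weight per nucleus, and 0.432 in KO-MI after thinning. Against the other CM2 nuclei, S phase lists gave -0.14 in WT-Sham and -0.20 in WT-MI after thinning and 0.41 in WT-Sham with size factors. Mitotic lists there gave 1.12 in WT-Sham and 1.11 in WT-MI with size factors, 1.50 in WT-MI and 1.47 in KO-Sham after thinning, and 1.41 in WT-MI without the nucleus rich in red blood cell UMIs. Requiring the level of CM1 alone, leaving out the deepest nuclei, equal weight for the S phase ratio, counting by 2 or more markers and leaving out the nucleus rich in red blood cell UMIs were chosen after seeing the data. Depth limits genes with few UMIs: WT-Sham gave 93060 UMIs from 22 nuclei.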
